A study of Mus musculus with 4 samples.

Results

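The genes described here are 9 transcription factors of the endothelial lineage: Erg, Fli1, Ets1, Sox7, Sox18, Gata2, Gata6, Tal1 and Mecom. They were chosen by name, and all 9 were listed among the 18767 genes of the count table. The table holds 4 single-cell RNA libraries of mouse aortic endothelial cells (EC), of which s001 and s002 are labelled Jag1 ECKO and s003 and s004 are labelled Jag1 ECWT. The Jag1 ECKO mice carried Jag1 fl/fl alleles and a tamoxifen-inducible Cre driven by the Cdh5 promoter, which is active in EC, and the Jag1 ECWT controls carried the floxed alleles without Cre. Mice of both groups were males of 1.5 to 3 months on a C57BL/6J background and had received 2 mg of tamoxifen per day for 5 days by intraperitoneal injection. Aortas were digested to single cells, and live CD31+ CD45- cells were sorted into wells of plates and sequenced by SORT-seq, which tags the 3' end of each transcript with a molecular identifier. No source used here says whether the libraries of a group came from separate mice, so p-values measure only the spread between these libraries.

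Of 991 deposited cells, 824 had more than 1200 genes and were kept, with 202, 236, 140 and 246 cells in s001 to s004. Their median depth ran from 4215 estimated transcripts per cell in s001 to 6522 in s002. Jag1, the targeted gene, went against the labels, with 158 and 70.8 CPM (counts scaled to a library total of 1000000) in s001 and s002 and 32.6 and 26.1 CPM in s003 and s004. Directions between groups are therefore given as those of the labels. Plate well barcodes recur across libraries, since 324 of 373 were used in more than 1 library. Clustering was set to give 14 clusters, the number in the study. Of these, 13 were EC-like, with 794 cells, and 1 was fibroblast/VSMC-like, with 30 cells. The leukocyte markers summed to at most 9.38 CPM in any library, and the red cell markers to 84.6 CPM in s001 and at most 1.34 CPM in the others, with Alas2 at 0 in all 4 libraries. The haemoglobin gene Beta-s came to 79.0 CPM in EC-like cells of s001 and led a cluster of 39 EC-like cells, of which 26 were from s001. The part of this RNA in the results was not tested.

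ERG, FLI1 and ETS1 belong to the ETS family, whose members bind a GGA core in the enhancers of most endothelial genes. ERG holds junction genes such as Cdh5 active in resting endothelium. SOX7 and SOX18 are SOXF factors, which act with NOTCH signalling in arterial specification, and SOX18 also starts lymphatic specification. GATA2 is the GATA factor best known in EC and blood stem cells, whereas GATA6 is also known from heart and vascular smooth muscle. TAL1 is a basic helix-loop-helix factor that works in a complex with LMO2, LDB1 and E proteins. MECOM is a zinc finger factor of blood stem cells and arterial endothelium.

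The genes lie on 8 chromosomes, and Fli1 and Ets1 are neighbours on chromosome 9. Fli1 is on the minus strand from 32422204 to 32542861 and Ets1 on the plus strand from 32636221 to 32757820, with 93359 bases between them (GRCm38). Erg lies on chromosome 16 from 95359169 to 95586593, Sox7 on chromosome 14 from 63943673 to 63950732, Gata2 on chromosome 6 from 88193891 to 88207032, Gata6 on chromosome 18 from 11052064 to 11085635, Tal1 on chromosome 4 from 115056426 to 115071755, and Mecom on chromosome 3 from 29951296 to 30548008. Exons of Gata6 and Mecom overlap antisense genes that the table does not list, and the strand setting of the authors' counting is not given in the sources used here.

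The GATA genes were the most abundant of the 9, and the ETS genes Ets1 and Erg the least. Levels are CPM of the counts summed over the kept cells of a library. The method makes 1 tag per transcript, so levels of different genes can be compared without division by gene length. Gata6 had 446, 432, 407 and 427 CPM in the libraries s001 to s004, with a mean of 428 ± 15.9 (SD, n = 4). Gata2 had 436, 301, 415 and 390 CPM in s001 to s004, with a mean of 386 ± 59.3. The 4 libraries of these genes overlapped, so their order was not larger than the spread. Mecom followed with 104 ± 15.9 CPM, Sox7 with 93.5 ± 24.9, Tal1 with 74.0 ± 3.62 and Fli1 with 72.7 ± 18.6. Every library of these 4 genes lay between 54.5 and 117 CPM. Neighbours in this order overlapped, but the lowest library of Mecom, at 81.5 CPM, was above the highest of Tal1, at 79.1 CPM. Ets1 had 32.2 ± 8.62 CPM and Erg 27.8 ± 3.17, again with overlapping ranges, and no library of either gene was above 44.2 CPM. Among the 18508 genes with a count, 98.5% had a lower mean level than Gata6 and 70.4% a lower mean level than Erg.

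**Figure D1:**
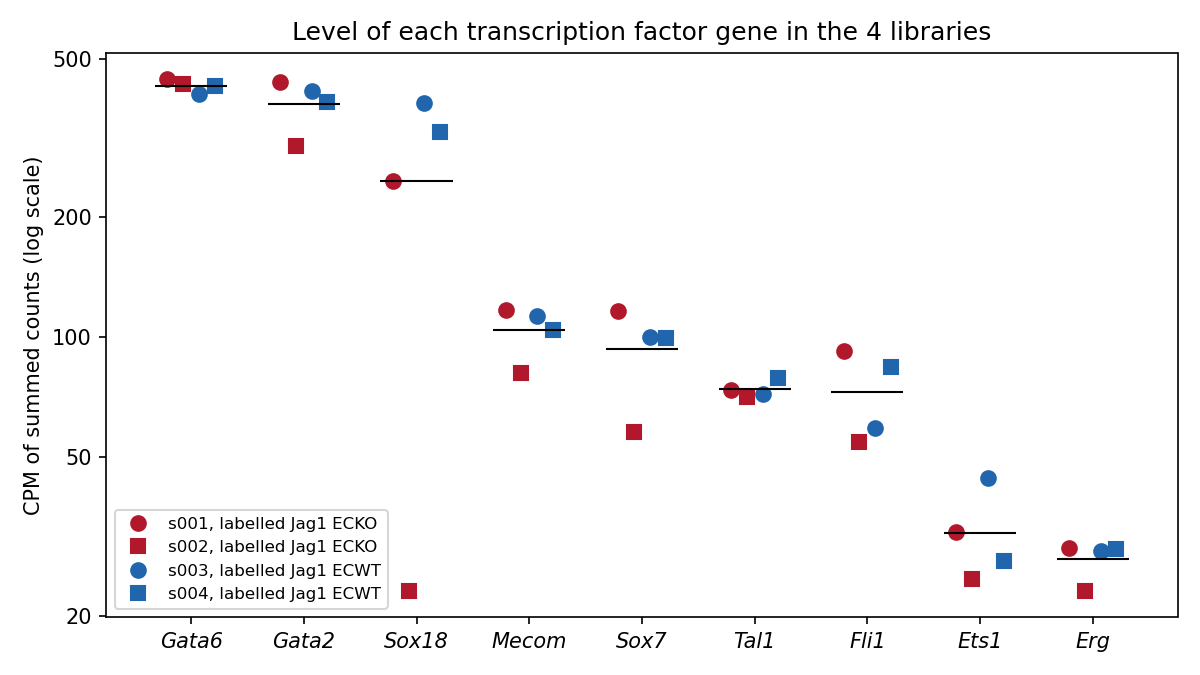
CPM of each gene on a log scale in s001 to s004, summed over cells with more than 1200 genes. Red marks libraries labelled Jag1 ECKO, blue those labelled Jag1 ECWT, and black lines are means over 4 libraries. Sox18 in s002 lies at 23.0 CPM, far below the other 3 libraries of that gene.

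Sox18 could not be placed in this order, because 1 library set it apart. It had 247, 23.0, 386 and 328 CPM in s001 to s004, from 251, 41, 332 and 490 counts. In s003 and s004 it was near the GATA genes, and in s002 it was at the level of Erg. For 8 of the 9 genes s002 had the lowest level, all but Gata6, while 31.1% of 9730 tested genes were lowest in s002. Outside Sox18 the gap was smaller. The widest was that of Sox7, which in s002 was at 57.9 CPM, against 116, 100 and 99.9 in s001, s003 and s004.

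Among abundant genes no other was so low in s002 alone. Of 1364 genes with at least 100 CPM in EC-like cells of each of the other 3 libraries, Sox18 was the only gene more than 4-fold below the lowest of the 3. Its ratio to that lowest library was 0.0857, and the next gene, Ost4, stood at 0.332. This screen was set up after the value had been seen. Run with each other library in the place of s002, it gave 17 of 1311 genes for s001 and 0 for both s003 and s004. The other SOX genes of EC were present in s002. Sox17, the remaining SOXF gene, had 189, 155, 200 and 174 CPM in EC-like cells of s001 to s004, and Sox13 had 291, 201, 286 and 216 CPM.

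Sox18 was low in s002 in every EC-like cluster that could be compared. A Sox18 count was found in 13.8% of 224 EC-like cells in s002, against 63.4% of 194 in s001, 81.0% of 137 in s003 and 78.7% of 239 in s004, although s002 was the deepest library. The highest count in a cell was 3 in s002 and 7, 14 and 12 in s001, s003 and s004. In the 10 EC-like clusters with at least 5 cells of s002, the ratio of s002 to the pooled other libraries ran from 0, with 0 counts in 12 cells of cluster 6, to 0.127 in cluster 7. Over all EC-like cells the ratio was 0.0684 (95% interval 0.0479 to 0.0949, exact and covering counting error only). The same ratio for Sox7 was 0.565 (0.447 to 0.709).

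**Figure D2:**
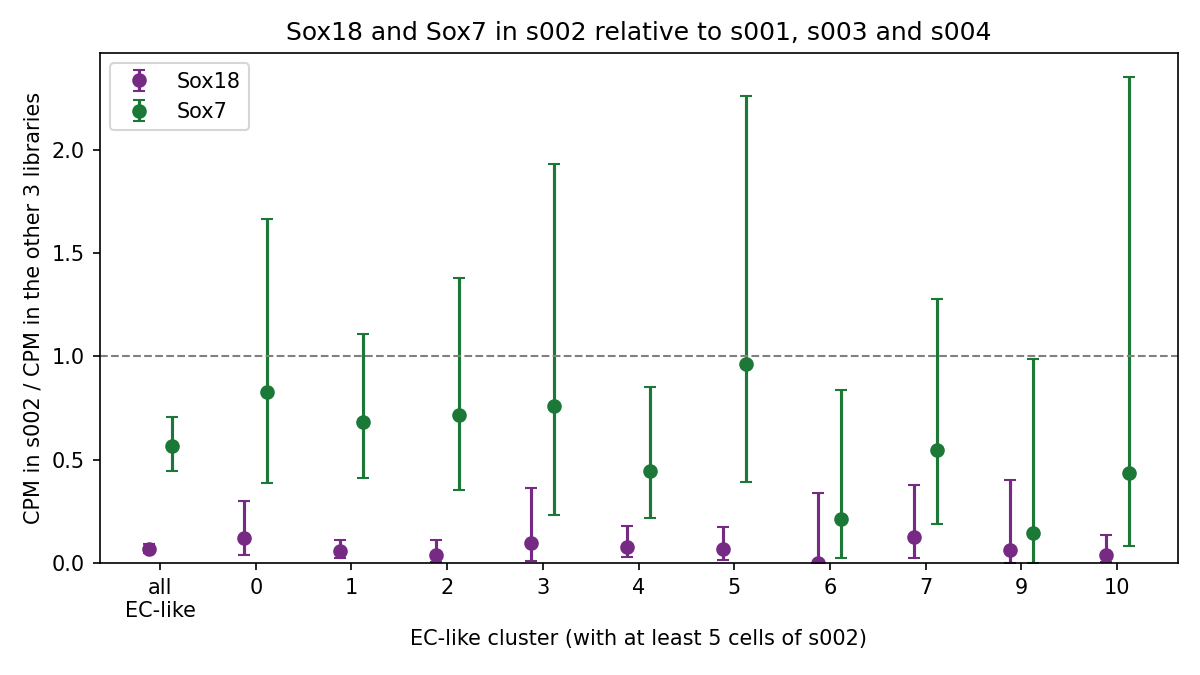
Ratio of CPM in s002 to CPM in the pooled other 3 libraries for Sox18 and Sox7, over all EC-like cells and in each EC-like cluster with at least 5 cells of s002. Bars are exact 95% intervals for counting error, and the dashed line marks equal levels. Sox18 lies at or below 0.127 in every cluster shown.

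Sox18 is a small gene of 2 exons on the minus strand of chromosome 2, from 181669836 to 181671640 in GRCm38 (GENCODE). The 6 genes within 150000 bases of it with at least 30 counts in EC-like cells did not share the gap. Prpf6, which lies 14176 bases away, had 56.9, 50.04, 54.6 and 67.4 CPM in s001 to s004. Rgs19, at 16779 bases, had 26.3, 25.6, 30.8 and 31.3 CPM. Over the 6 neighbours the level in s002 was 0.583 (Samd10) to 1.78 (Tcea2) times the mean of the other libraries, against 0.0681 for Sox18. The cause of the low value was not tested.

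No member passed the test between genotype labels. By edgeR's quasi-likelihood test with Benjamini-Hochberg adjustment, 0 of 9730 genes (0%) were called at an adjusted p below 0.05, and 465 genes (4.78%) had an unadjusted p below 0.05. None of the 9 members was among those 465. DESeq2 called 2 genes, Jag1 and the venous factor Nr2f2, and no member. The fold changes are those of libraries labelled Jag1 ECKO over those labelled Jag1 ECWT on the log2 scale. They were 0.09 (SE 0.16) for Gata6 and negative for the other 8 genes, with a median of -0.13 over the members and -0.0010 over all genes. With 2 libraries per label, an exact permutation test of a value cannot give a p below 0.333.

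Outside Sox18 the differences between labels were small against their errors. The ETS genes had log2 fold changes of -0.16 (SE 0.29) for Erg, -0.01 (SE 0.29) for Fli1 and -0.29 (SE 0.32) for Ets1. Sox7 had -0.23 (SE 0.29), Gata2 -0.12 (SE 0.19), Tal1 -0.05 (SE 0.20) and Mecom -0.13 (SE 0.21). The adjusted p-values of these 8 genes, with Gata6, were between 0.928 and 0.995. The libraries of the labels did not overlap for Gata6, which was higher under Jag1 ECKO, and for Sox18, which was lower. Among all genes 16% were apart in the first direction and 19.4% in the second, so 1 of 9 in each direction was close to what genes at large showed.

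Sox18 had a log2 fold change of -1.47 (SE 0.74), with an edgeR unadjusted p of 0.0813 and an adjusted p of 0.900. This value rested on s002. Without s002 it was -0.56 with an adjusted p of 0.108, and without s001 it was -3.88 with an adjusted p of 1.59e-27. Without a filter on low counts it was -1.45 with an adjusted p of 5.17e-08. DESeq2 gave -1.42 with an adjusted p of 1.00. In s001, the other library labelled Jag1 ECKO, Sox18 was at 247 CPM, below the 328 and 386 CPM of the libraries labelled Jag1 ECWT.

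No factor of the wider families was called by edgeR either. Of the 10 other ETS factors tested 2 had an unadjusted p below 0.05. These were Ets2, at 0.84 (SE 0.26), and Elf4, at 0.94 (SE 0.40), both with higher mean levels under the Jag1 ECKO label. None of the 6 other SOX genes, the 3 other GATA genes and cofactors and the 9 genes of the TAL1 complex was called or had an unadjusted p below 0.05. Among 22 other endothelial transcription factors none was called by edgeR, and Nr2f2, at 2.14 (SE 0.30, adjusted p = 0.296), and Hey2, at -0.41 (SE 0.17, adjusted p = 0.900), had an unadjusted p below 0.05. Other lists moved beside these values. VSMC markers summed to 3539, 1640, 453 and 1295 CPM in s001 to s004, and capillary markers to 872, 250, 218 and 206 CPM. Genes that respond to tissue dissociation summed to 6204, 3560, 4493 and 4005 CPM. Of 27 of them tested, 21 were higher and 6 lower under Jag1 ECKO, against 4853 higher of all 9730 genes. Their part in the label comparison was not tested.

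EC-like cells held more of the GATA genes than the fibroblast/VSMC-like cells sorted with them, and more Sox18 in the libraries other than s002. The comparison used counts summed per library and class with the library as a block. EdgeR called 356 of 6504 genes (5.47%) higher in EC-like cells and 233 lower. Of the 9 members, 3 were called, all higher in EC-like cells. None of the 9 was among the genes that made the clusters, but the classes came from the same cells, so these p-values are not from an independent sample. The median log2 difference was 1.47 over the members and 0.18 over all genes.

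Gata6 had 470, 453, 413 and 439 CPM in EC-like cells of s001 to s004, against 105, 178, 124 and 112 CPM in fibroblast/VSMC-like cells. Its log2 difference was 1.81 (SE 0.40, edgeR adjusted p = 2.07e-04), with EC-like cells higher in 4 of 4 libraries. Gata2 had 459, 319, 421 and 398 CPM against 105, 92.6, 124 and 168 CPM, a log2 difference of 1.77 (SE 0.41, adjusted p = 3.63e-04). Both GATA genes were thus lower but still present outside EC-like cells. Sox18 had 263, 22.6, 394 and 337 CPM against 15.0, 28.5, 0 and 93.5 CPM, a log2 difference of 2.15 (SE 0.52, adjusted p = 8.76e-04). It was not higher in EC-like cells of s002, and the call was lost without s001, at 1.70 with an adjusted p of 0.0720, while without s002 the difference was 3.0.

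The other 6 members did not pass. Their fibroblast/VSMC-like counts ran from 2 for Ets1 to 16 for Sox7 and Mecom, and Sox18 was called on 10 such counts. Fli1 differed by 1.47 (SE 0.63, adjusted p = 0.163), Ets1 by 1.98 (SE 1.04), Erg by 1.37 (SE 0.95), Tal1 by 1.10 (SE 0.59) and Mecom by 0.96 (SE 0.50). Erg rested on 3 counts in fibroblast/VSMC-like cells, Ets1 on 2 and Fli1 on 8, and their fitted differences moved with single libraries. Fli1 was at 3.55 (adjusted p = 0.0753) without s002 and 0.95 (adjusted p = 0.731) without s001. With a library left out Ets1 ran from 1.18 to 2.80, Erg from 0.96 to 2.05, Tal1 from 0.69 to 1.38 and Mecom from 0.76 to 1.76, and none of these passed. Sox7 showed no clear excess in EC-like cells. Its fitted difference was 0.48 (SE 0.50, adjusted p = 0.778), but its mean CPM was 94.9 in EC-like and 115 in fibroblast/VSMC-like cells, and without s001 the fit gave -0.08. In s003 the latter class had 3 cells, in which 3 counts come to 187 CPM. The levels of EC-like cells lay above all fibroblast/VSMC-like levels for Erg, Fli1, Gata2, Gata6 and Mecom, 5 of 9 genes, against 11.8% of all genes. In s003, where 1 fibroblast/VSMC-like count comes to 62.2 CPM, Erg, Fli1 and Mecom had 0 counts in that class. For Erg and Fli1, 1 count there would have joined the ranges, so their separation rests on that floor.

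**Figure D3:**
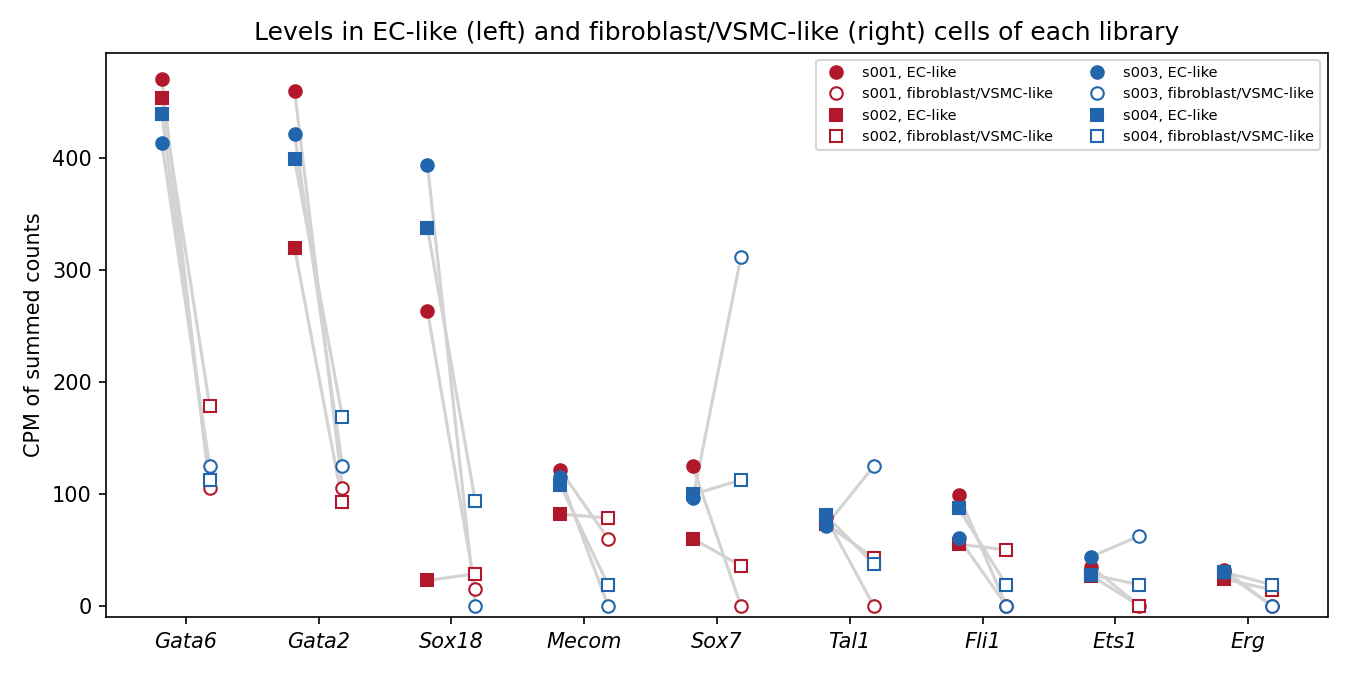
CPM of each gene in EC-like cells (filled, left) and fibroblast/VSMC-like cells (open, right) of the same library, joined by a grey line. Gata6 and Gata2 separate in all 4 libraries, and Sox7 does not.

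The fibroblast/VSMC-like cells were not free of EC transcripts. Pecam1, which encodes the sorted antigen CD31, had a mean of 2135 CPM there and 4858 CPM in EC-like cells, and Cdh5 had 66.7 and 407 CPM. Doublets were not called. The part of mixed cells or carried-over RNA in the member levels of that class was not tested. The genes that respond to tissue dissociation differed between the classes too. Of 26 tested, 9 were called lower in EC-like cells and 1 higher, with a median of -0.74, and Fos had a log2 difference of -3.51 (SE 0.38) and Egr1 one of -2.12 (SE 0.35). Their part in the class comparison was not tested. Some partners of the members were also called. Lmo2 had 794 CPM in EC-like and 78.1 in fibroblast/VSMC-like cells, a log2 difference of 3.55 (SE 0.45), and the corepressor Cbfa2t3 had 616 and 101 CPM, a difference of 2.75 (SE 0.42). Ldb2 had 86.2 CPM in EC-like cells and no count in the 30 others. These 3 were the called genes among 9 of the TAL1 complex. Others of the list had higher mean levels in fibroblast/VSMC-like cells and were not called, with Lmo4 at -0.97 (SE 0.39, unadjusted p = 0.0119) and the E protein gene Tcf4 at -0.49 (SE 0.37). Sox17 (2.50, SE 0.54), Sox13 (1.44, SE 0.43) and Gata3 (1.5, SE 0.53) were also called higher, Sox4 was at -1.51 (SE 0.65, unadjusted p = 0.0208), and 0 of 7 other ETS factors were called by edgeR, with Elk3 at an unadjusted p of 0.0244. Of 20 other endothelial transcription factors tested, 3 were called higher in EC-like cells and 2 lower, with a median difference of 0.23. The lower genes were Nr2f2 (-2.84, SE 0.41) and Ebf1 (-2.87, SE 0.60). Of 18 listed endothelial genes known to be driven by these families and not used as EC markers, 13 were tested and 8 called higher. Over all genes 5.47% were called higher. The list was made of endothelial genes and the classes were named by EC markers, so this count is no measure of the activity of the factors.

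Cells differ in depth, so shares of cells were compared after each cell was thinned to 2837 counts, which kept 742 cells and left out 36, 13, 13 and 20 shallower cells in s001 to s004. At that depth Gata6 was counted in 62.9% of cells (95% interval 59.3 to 66.4), Gata2 in 60.4%, Sox18 in 40.2%, Sox7 in 22.0%, Mecom in 21.3%, Tal1 in 18.7%, Fli1 in 16.7%, Ets1 in 8.36% and Erg in 5.66%. Without thinning these ran from 79.2% for Gata6 to 12.4% for Erg. In 29 thinned fibroblast/VSMC-like cells the shares were 37.9% for Gata6, 34.5% for Gata2, 24.1% for Sox7, 13.8% for Mecom, 10.3% for Sox18, 6.90% for Erg and 3.45% for each of Fli1, Ets1 and Tal1. For Sox7 and Erg the shares in all cells were below those in fibroblast/VSMC-like cells. The latter came from 7 of 29 cells for Sox7 (95% interval 10.3 to 43.5%) and 2 of 29 for Erg (0.846 to 22.8%). So few cells do not decide whether these shares differ between the classes. The median depth before thinning was 5246 counts in EC-like cells and 7604 in fibroblast/VSMC-like cells.

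Counts scattered over cells by 1.18 to 1.57 times the variance that random sampling of transcripts gives. A Poisson law with the same mean would give a count in 71.6% of cells for Gata6, 67.3% for Gata2 and 46.2% for Sox18, each above the observed share. For Erg it would give 6.26%, within the observed interval of 4.11 to 7.57%. The variance of counts over their mean, which is 1 for a Poisson law, was 1.57 for Gata6, 1.54 for Gata2, 1.36 for Sox18, 1.36 for Ets1, 1.34 for Mecom, 1.31 for Erg, 1.25 for Fli1, 1.23 for Sox7 and 1.18 for Tal1. Tal1 was as even as the median of 1844 genes of like mean (1.18), whereas Ets1 was above 92.5% of its 2893. The ratio of Erg rested on s001, where it was 1.94. Without s001 it was 1.11, against 1.14 for the median of genes of like mean over all libraries. Sox18 was uneven between libraries more than within them. Its ratio was 1.12 within libraries, the lowest of the 9, and its thinned share was 4.93% in s002 but 46.4, 64.6 and 56.6% in s001, s003 and s004.

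**Figure D4:**
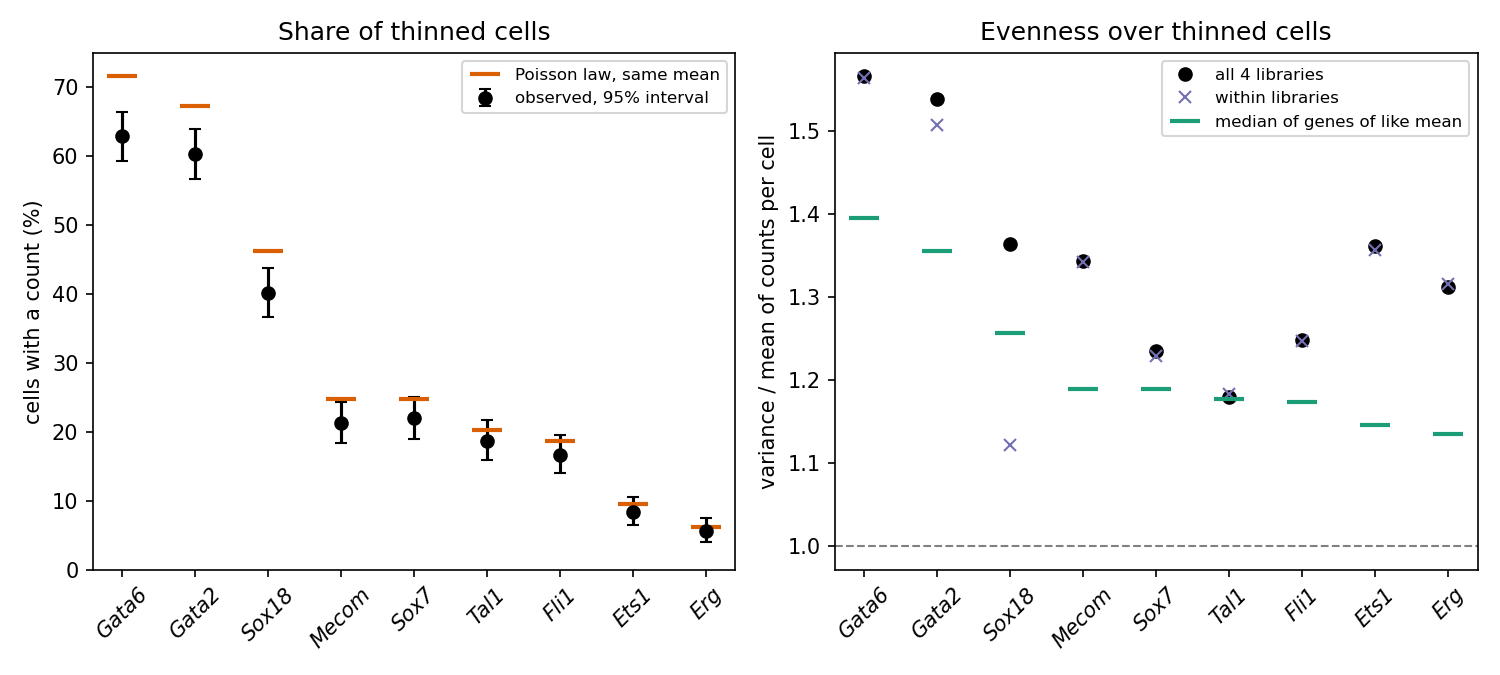
Left, percent of 742 thinned cells with a count of each gene (points, exact 95% intervals) and the percent that a Poisson law of the same mean gives (orange). Right, variance over mean of counts per cell over all libraries (points) and within libraries (crosses), with the median of genes of like mean (green). Sox18 drops from 1.36 to 1.12 within libraries, and Ets1 over all libraries stands above the median of genes of like mean.

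Over all 36 pairs the members were counted together in a cell at a median of 0.997 times the product of their separate shares, with single pairs between 0.614 and 1.66 times. A thinned cell held 2.56 ± 1.23 of the 9 genes (mean ± SD over 742 cells), and 716 of 742 cells held at least 1. The mean was 2.05 in s002 and 2.74 to 2.82 in the other libraries. An ETS member was counted in 27.9% of cells, a SOX member in 53.0% and a GATA member in 82.3%, against 28.0, 52.7 and 85.3% from the products of the single shares. Of the pairs, 18 were counted together more often than the product within libraries, and the correlation over cells lay between -0.11 and 0.14. The highest multiple was that of Erg with Ets1, on 6 cells. The lowest was that of Ets1 with Tal1, on 7 cells, followed by Sox7 with Tal1, which were counted together in 19 cells, or 2.56% against a product of 4.12%. The lowest correlation was that of Ets1 with Gata6, which were counted together in 26 cells, or 3.50% against a product of 5.16%. All these cells come from 4 libraries, so the correlations are descriptions.

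Ets1 had the clearest pattern across EC-like clusters, and its likeness to other genes was the strongest of the 9. Over 742 cells and 6685 genes, with values centred within libraries, the genes most like Ets1 were Flt1, which encodes a VEGF receptor (r = 0.33), Fam101b (r = 0.33) and Sparcl1 (r = 0.29). Among the genes most like Gata6 were Sfrp1 (r = 0.22) and Tm4sf1 (r = 0.20). For the other 7 members no gene exceeded r = 0.17, a weak correlation in sparse counts.

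A capillary-like cluster of 17 cells held many Ets1 transcripts and almost no Gata6, and no Tal1 was counted in it. Its leading genes were Gpihbp1, Cd36 and Igfbp3, and 5 of 7 capillary markers were raised. GPIHBP1 carries lipoprotein lipase to the capillary lumen and CD36 takes up fatty acids. Ets1 came to 405 CPM there, from 28 counts, against 22.9 CPM in 745 EC-like cells outside both clusters with capillary markers, a ratio of 17.7 (95% interval 11.2 to 27.0). In s001 to s004, with 4, 4, 8 and 1 cells, it had 279, 644, 352 and 346 CPM, against 22.6, 17.3, 28.6 and 26.1 CPM in the other EC-like cells. The cluster was thus higher in 4 of 4 libraries. At matched depth 13 of its 15 cells (86.7%) had an Ets1 count, against 6.09% of 673 others.

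Gata6 had 1 count in the same 17 cells, or 14.5 CPM, against 460 CPM in the other EC-like cells, a ratio of 0.0314 (0.00079 to 0.175). The count was in s001, and without s003 the ratio was 0.0526 (0.00133 to 0.293). Of 15 thinned cells 1 had a Gata6 count, against 66.0% of 673 others. Tal1 had 0 counts against 79.2 CPM, which allows a ratio of up to 0.677 by the same interval and of up to 1.14 without s003. Gata2 was at 202 CPM against 388, a ratio of 0.521 (0.284 to 0.877) that rested on s003. It was 0.242 (0.0497 to 0.713) in s003 and 0.713 (0.355 to 1.28) without s003. Fli1 was at 145 CPM, a ratio of 2.11 (1.00 to 3.94) that was 1.5 (0.545 to 3.32) without s002. Over all libraries the intervals for Erg, Sox7 and Mecom included 1. Sox18 was at 390 CPM, a pooled ratio of 1.72 (1.13 to 2.52), but the pools hold different shares of s002. Within libraries the Sox18 ratio was 2.12 (1.00 to 3.96) in s001, 1.17 (0.615 to 2.03) in s003 and 1.55 (0.318 to 4.55) in s004, and s002 had 1 count. The intervals cover counting error only, and a cluster drawn from the same cells gives no test.

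A cluster of 32 cells led by Lrg1, Fabp4 and Pde2a lay in the same direction for Ets1 and Gata6. It held 3 capillary and 2 lymphatic markers and the venous gene Nr2f2, and is named by its leading genes here. Of its cells, 18 were from s001. Ets1 was at 113 CPM (ratio 4.93, 2.89 to 8.0), Fli1 at 192 CPM (2.81, 1.91 to 4.01), and Gata6 at 220 CPM (0.478, 0.339 to 0.656). Over all libraries Fli1 was highest of all 13 EC-like clusters here. Without s001 it was at 118 CPM, against 156 CPM in the capillary-like cluster. Within the 18 cells of s001 Fli1 had 24 counts, a ratio of 3.21, and in the 14 cells of the other libraries it had 10 counts, a ratio of 1.80 (0.853 to 3.37). Mecom had 8 counts, or 45.2 CPM, a pooled ratio of 0.433 (0.186 to 0.861) that rested on s001. It was 0.165 in s001, on 2 counts, and 0.720 (0.263 to 1.58) without s001. All 5 Tal1 counts were from s001, where the ratio was 0.649 (0.204 to 1.59), and the 14 other cells had none, which allows a ratio of up to 0.560. With a coarser clustering, chosen after seeing the data, 48 cells formed 1 such cluster, in which the ratios were 8.61 for Ets1, 0.357 for Gata6, 0.207 for Tal1 and 2.65 for Fli1. Without s001 that of Gata6 was 0.228 (0.124 to 0.384), and all 4 Tal1 counts were from s001. For Sox18 the ratio was 0.977 (0.729 to 1.29). For Gata2 it was 0.941 (0.752 to 1.16) with 57 of 89 counts from s001, where it was 1.18 (0.876 to 1.56), and in s003 it was 0.229 (0.0619 to 0.590).

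**Figure D5:**
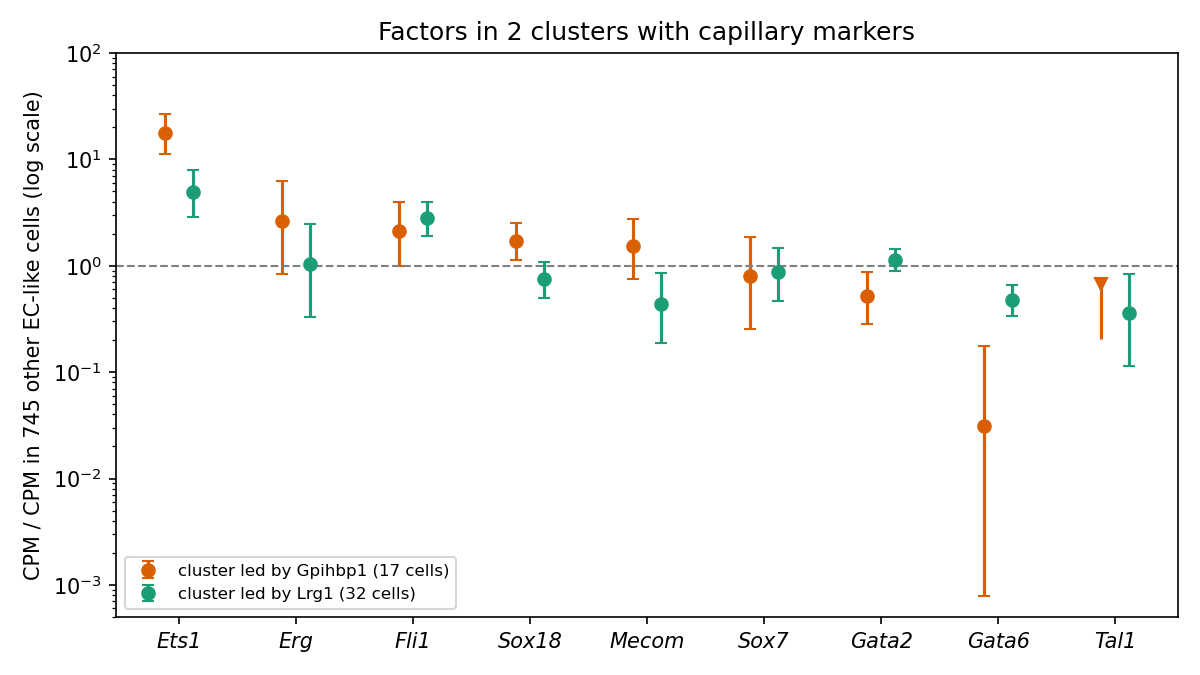
Ratio of CPM in the capillary-like cluster led by Gpihbp1 and in the cluster led by Lrg1 to CPM in the 745 other EC-like cells, on a log scale with exact 95% intervals for counting error. The triangle marks the upper bound for Tal1, which had 0 counts. Ets1 stands at 17.7 and Gata6 at 0.0314 in the capillary-like cluster.

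The variance of Ets1 over cells was lower without these cells. Over 713 thinned EC-like cells its variance over mean was 1.37, and in the 673 cells outside both clusters it was 1.03. Those of Gata6 (1.55 and 1.52) and Erg (1.33 and 1.37) did not drop in this way. The remaining EC-like clusters still differed in Ets1. It was lowest, at 3.37 CPM (0.695 to 9.85) from 3 counts in 100 cells, in the cluster led by Pla2g5, Nkx2-3 and Pcolce2. In 4 of 4 libraries this cluster was below all other EC-like cells, those of the 2 clusters with capillary markers included. With 3 counts in all and 5 cells in s001, single libraries say little here. Among the remaining clusters Ets1 was highest, at 54.0 CPM (36.2 to 77.6), in the cluster led by Igf2, Nog and Vcan. That cluster was above all other EC-like cells in 4 of 4 libraries. At matched depth 1% of cells of the first cluster and 17.9% of the second had an Ets1 count.

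The other members also varied between EC-like clusters. Gata2 ran from 202 CPM in the capillary-like cluster to 478 CPM in a cluster led by the immediate early genes Nr4a1 and Junb, and Gata6 was also highest there, at 605 CPM (487 to 744). All 29 cells of that cluster were from s001. Against the 165 other EC-like cells of s001, the ratio was 1.45 (1.05 to 1.97) for Sox18, 1.36 (1.07 to 1.72) for Gata6, 1.05 (0.801 to 1.35) for Gata2 and 0.349 (0.137 to 0.744) for Mecom, and the intervals of the other 5 members included 1. Sox7 ran from 29.4 CPM (12.7 to 58.0) in the cluster led by Coch and Fbln5, of whose 31 cells 21 were from s002, to 165 CPM (118 to 226) in the cluster led by Krtap5-5. Of the 61 cells of the latter, 30 were from s001 and 12 from s002. Against the other EC-like cells of the same library its Sox7 ratio was 3.05 (1.80 to 4.92) in s004, 1.25 (0.691 to 2.14) in s001 and 0.703 (0.0839 to 2.61) in s002, where it had 42.4 CPM. Mecom ran from 45.2 to 159 CPM, and Erg from 6.73 CPM, on 1 count, to 72.3 CPM, on 5 counts. Sox18 was lowest in the cluster led by Coch, at 125 CPM, and its 10 cells from libraries other than s002 had 375 CPM.

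Promoter windows from RefSeq (GRCm38.p6), 250 bases before to 50 bases after a start site, were matched by symbol for Erg, Gata2, Mecom and Tal1, with 9 windows in all. They were searched on both strands for the letters CAGGAA as an ETS motif, for ACAAT as a SOX motif, for AGATAA as a GATA motif and for CAGNTG, the E-box bound by TAL1 with E proteins. These were found in 1, 1, 2 and 4 of the 9 windows, and in 30.6, 31.0, 11.2 and 51.4% of 32851 windows of the same length. The AGATAA letters were in 1 window each of Erg and Tal1. The Erg window at chr16:95459299-95459598 (minus strand) is shown because it holds all 4 kinds of letters. The Tal1 window at chr4:115056176-115056475 (plus strand) is shown as the other window with the AGATAA letters. Both read 5' to 3', with matches in capitals, none of which overlap, and a match is only a description.
Erg: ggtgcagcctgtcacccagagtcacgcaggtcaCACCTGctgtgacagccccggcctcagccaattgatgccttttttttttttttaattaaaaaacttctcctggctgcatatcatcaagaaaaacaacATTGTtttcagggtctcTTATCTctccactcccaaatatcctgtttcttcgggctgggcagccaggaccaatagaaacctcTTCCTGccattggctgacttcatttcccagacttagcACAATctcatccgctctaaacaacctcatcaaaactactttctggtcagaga
Tal1: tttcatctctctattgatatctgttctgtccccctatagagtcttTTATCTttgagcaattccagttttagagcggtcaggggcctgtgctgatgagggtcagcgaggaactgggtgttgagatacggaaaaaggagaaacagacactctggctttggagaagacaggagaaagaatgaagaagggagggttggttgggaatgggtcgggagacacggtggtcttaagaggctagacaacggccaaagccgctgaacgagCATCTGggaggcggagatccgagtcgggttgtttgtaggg
In the Tal1 window the GATA letters start 205 bases before the start site and the E-box letters 10 bases after it.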

How the data were processed

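SORT-seq libraries from sorted aortic cells were used. Per the labels and the study's methods, the authors aligned reads to GRCm38 with STAR. The deposited values are estimated counts of transcripts, that is UMI numbers corrected for chance repeats. Solving the correction over 4096 UMIs gave whole numbers to within 4.09e-12. Neither a version of STAR nor a counting tool is given in the sources used here. Estimated counts were rounded. Cells with more than 1200 genes were kept and clustered with Seurat 5.3.0 (2000 variable genes, 12 principal components). The resolution was raised until 14 clusters formed, the number in the study, which was at 2.3. A cluster with 6 or more fibroblast and VSMC markers raised 3-fold (20 CPM added) was fibroblast/VSMC-like, and the rest, with at least 7 of the 10 EC markers kept, were EC-like.

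Counts summed per library were tested with edgeR 4.0.16 (TMM, filterByExpr, quasi-likelihood, Benjamini-Hochberg) in R 4.3.3, with DESeq2 1.42.0 as an alternative. On simulated data with 9427 genes the label comparison called 0% of genes with a simulated log2 change of 1, 16.0% where it was 2, and 0 unchanged genes. Over 5954 genes the class comparison called 47.4% of genes with a log2 change of 2. Every simulated gene had the same fixed spread between libraries, which was not fitted to these data. These percentages are therefore no measure of what the comparisons could detect here. Shares used cells thinned to their 10th percentile of depth. Genes of like mean lay within a factor of 1.5, and likeness was measured over genes counted in at least 5% of thinned cells. Named genes are the members, Jag1, the most abundant or lowest-p genes of fixed lists, the genes most like a member, markers, leading genes of clusters, and neighbours of Sox18. Members and lists were chosen with earlier results of these data known. Ldb2, Ost4, the neighbours of Sox18 and the called partners were named after their values were seen.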

Additional observations from a re-analysis of the deposited data

How the results depend on the processing

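No paired analysis was possible because the replicate numbers of the labels only follow the order of deposition, so no label comparison has a replicate block. Between classes, where the library is the block, 589 genes were called, and without the replicate block 695. Between labels the count of called genes was 0, and it was 127 without a filter on low counts, 2 with DESeq2 and 0 to 417 with a library left out (196 without s001, 417 without s002). Between classes it was 282 to 684 with a library left out (327 without s001, 282 without s002). The sign of the log2 fold change between labels turned for members near 0: for Fli1 it was 0.0019 without the filter, 0.014 over all deposited cells, 0.017 in EC-like cells, 0.030 at matched depth, 0.042 outside the cluster led by immediate early genes, 0.013 with DESeq2 and -0.37 to 0.34 with a library left out, and for Tal1 0.0098 in cells with more than 1500 genes, 0.013 in EC-like cells, 0.028 outside the same cluster and -0.15 to 0.065 with a library left out. With a library left out, Ets1 ran from -0.58 to 0.018, Sox7 from -0.72 to 0.18, Gata2 from -0.35 to 0.084 and Mecom from -0.35 to 0.079, and between classes Sox7 ran from -0.083 to 0.96. Outside Sox18 no alternative gave a member an adjusted p below 0.102 between labels (Sox7). Leaving out a library leaves 1 under its label, which is assumed to vary like the others. The estimated counts behind Erg and Ets1, 140 and 156 in 824 cells, limit what can be read from single clusters.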
